A study of Mus musculus with 6 samples.

Results

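Most microRNAs (miRNAs) are cut out of a long primary transcript in the nucleus by Drosha, the RNase of the Microprocessor complex, before Dicer trims the hairpin in the cytoplasm. A few hairpins skip the Drosha step. Some are transcribed directly as short hairpins, and others, the mirtrons, are short introns that the spliceosome releases and that are debranched and folded into a Dicer substrate. Mouse embryonic stem cells that lack the Microprocessor subunit Dgcr8 keep such miRNAs, which is how several of them were recognised.

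The miRNAs described here are all array entries of miR-320, miR-484, miR-702, miR-877, miR-1224 and miR-1981, either arm, chosen by name. They make up 11 of the 1247 mouse miRNAs on the array and come from 6 hairpins. miR-320 and miR-484 (3 entries) are the directly transcribed hairpins, and miR-702, miR-877, miR-1224 and miR-1981 (8 entries) are the mirtrons. Every entry was included whether or not it was detected. Each was set beside the other miRNAs of the same array.

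Levels were measured in embryoid bodies (EBs) kept for 16 h under hypoxia, in EBs kept for 16 h under normoxia, and in undifferentiated mouse embryonic stem cells (mESCs) kept for 16 h under normoxia. All came from a C57 line. The mESCs were grown on mitomycin C-treated mouse fibroblast feeders with leukaemia inhibitory factor, the cytokine that keeps them undifferentiated. EBs, the aggregates in which these cells begin to differentiate, were formed in hanging drops without feeders or the cytokine, so the EB and mESC groups differ in feeders and medium as well as in differentiation. The oxygen level of the hypoxia is not given in the sources used here. Each group had 2 arrays, and no label says whether they came from separate cultures, so p-values measure the spread between arrays, which may be technical. In whole cultures such as these, fewer cells with a miRNA and less of it per cell cannot be told apart.

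The hypoxic EB arrays detected 495 and 471 mouse miRNAs, the normoxic EB arrays 446 and 473, and the mESC arrays 408 and 415. The 2 arrays of a group correlated at 0.9979, 0.9977 and 0.9972 (Pearson r across miRNAs on the log2 scale, which are not independent) in hypoxic EBs, normoxic EBs and mESCs. All 8 mESC markers on the array, miRNAs of the miR-290 and miR-302 clusters, were detected on every array of every group. Their summed scaled signal was 20383 and 20393 in hypoxic EBs, 26424 and 23730 in normoxic EBs, and 32009 and 30520 in mESCs. Of 7 fibroblast markers on the array, 2 were detected on all arrays and miR-143-3p and miR-199a-5p on none. Their summed signal was 201 and 183 in hypoxic EBs, 250 and 231 in normoxic EBs, and 459 and 436 in mESCs. Most of it was miR-21a-5p, at 154 and 147 in hypoxic EBs, 201 and 179 in normoxic EBs, and 415 and 393 in mESCs. The values of miR-22-3p were 31.1 and 32.1, 43.4 and 43.9, and 44.5 and 43.0 in the same order. Detection of miR-199a-3p was on the 4 EB arrays only, and of miR-145a-5p and miR-214-3p on the first hypoxic EB array only. miR-210-3p, the best known hypoxia-induced miRNA, read 171 and 181 in hypoxic EBs, 79.3 and 73.6 in normoxic EBs, and 154 and 142 in mESCs. The part of feeder RNA in the differences from mESCs was not tested, and the mESC arrays occupied another row of the slide than the EB arrays, so slide position cannot be told apart from differentiation.

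Mature sequences of detected arms of miR-484, miR-702, miR-877 and miR-1224 are printed here because seed and base composition recur in the results. They are RefSeq entries of GRCm38.p6, matched by name for 9 of the 11 entries (all but the 2 of miR-320) and written 5′ to 3′ with the seed, bases 2 to 8, in capitals.
miR-484 (chr16:14159630-14159651, plus strand): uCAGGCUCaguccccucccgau
miR-702-3p (chr5:136991520-136991541, plus strand): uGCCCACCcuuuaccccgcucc
miR-877-5p (chr17:35960795-35960814, minus strand): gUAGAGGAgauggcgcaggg
miR-877-3p (chr17:35960731-35960752, minus strand): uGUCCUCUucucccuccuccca
miR-1224-5p (chr16:20604452-20604472, plus strand): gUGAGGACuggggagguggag
miR-1224-3p (chr16:20604516-20604536, plus strand): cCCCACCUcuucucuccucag
No seed was shared among these 6 arms. The 5p arms of miR-877 and miR-1224 are rich in G and their 3p arms are rich in C and U.

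The whole hairpins of 3 mirtrons are shown for their ends, which carry the letters of an intron. The GU of a 5′ splice site at the first bases and the AG of a 3′ splice site at the last bases are in capitals.
miR-877 hairpin (chr17:35960730-35960814, minus strand): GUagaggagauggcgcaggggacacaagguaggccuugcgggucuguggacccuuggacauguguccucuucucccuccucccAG
miR-1224 hairpin (chr16:20604452-20604536, plus strand): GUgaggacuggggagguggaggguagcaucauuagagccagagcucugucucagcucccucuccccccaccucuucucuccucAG
miR-1981 hairpin (chr1:184822407-184822488, minus strand): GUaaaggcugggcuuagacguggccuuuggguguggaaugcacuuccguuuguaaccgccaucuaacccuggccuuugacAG
Of the 1005 mouse hairpins in the RefSeq table, 30 (2.98%) begin with GU and end with AG, these 3 among them. The 5p arm of each of the 3 starts at the first base of the hairpin. The 3p arm of miR-1224 ends at the last base, that of miR-877 1 base before it and that of miR-1981 2 bases before it. The RefSeq hairpin of miR-702 instead begins with CG and ends with CC, and its 5p arm, which starts with GU, begins at base 10.

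Each mirtron lies within a protein-coding gene in the RefSeq gene table. miR-702 lies within Plod3, which encodes a collagen lysyl hydroxylase, and miR-877 within Abcf1, an ATP-binding cassette protein that acts in translation initiation. miR-1224 lies within Vwa5b2 and miR-1981 within Mtarc2, a mitochondrial amidoxime-reducing enzyme. All 4 are on the strand of that gene. The table does not separate exons from introns. miR-320 lies next to Polr3d, a subunit of RNA polymerase III, and miR-484 lies between Marf1 and Nde1, which encodes a dynein regulator.

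Of the 11 entries, 6 were detected on all 6 arrays and entered the test. They are miR-320-3p, miR-484, miR-702-3p, both arms of miR-877 and miR-1224-5p. miR-1224-3p was detected only on the first hypoxic EB array, at a signal of 4.51 before scaling and with a scanner error of 28.4%. miR-320-5p, miR-702-5p and both arms of miR-1981 were detected on no array. For each of miR-320, miR-702 and miR-1224 the array thus measured 1 arm throughout, and both arms were measured only for miR-877.

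**Figure D1:**
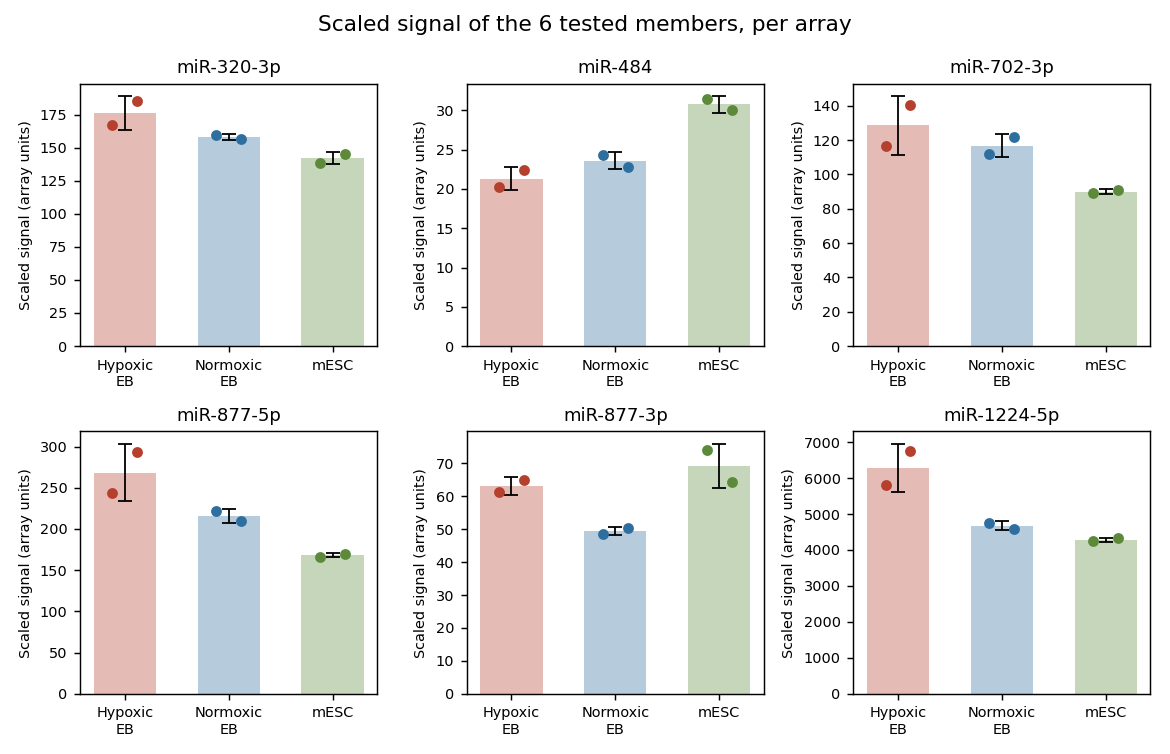
Scaled signal (linear axis from 0, arbitrary units, a scale of its own in each panel) of the 6 members detected on all arrays, with hypoxic EBs, normoxic EBs and mESCs from left to right; points are single arrays, bars are group means and error bars are the SD of 2 arrays. miR-320-3p, miR-702-3p, miR-877-5p and miR-1224-5p have their highest mean in hypoxic EBs, and miR-484 and miR-877-3p in mESCs.

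The signals given from here on are scaled to the 75th percentile of each array over 391 miRNAs detected on every array, in arbitrary units. Probes of different miRNAs respond differently, so levels are compared between groups and not between miRNAs. The adjusted p-values are from limma with Benjamini-Hochberg adjustment over 484 tested miRNAs, with 0.05 as the threshold, and fold intervals are 95% intervals of that fit. The 3 comparisons share arrays, so they are not independent of each other. A fit without 1 array leaves 1 array in that group and fewer to measure the spread. Calls can then be lost though the change holds. Without scaling, the median log2 change of all tested miRNAs was 0.74 for normoxic EBs over mESCs, -0.10 for hypoxic over normoxic EBs and 0.57 for hypoxic EBs over mESCs. Directions below are therefore relative to the bulk of the miRNAs.

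The directly transcribed hairpins went in opposite directions between hypoxic EBs and mESCs. miR-320, which has been reported to act on the small heat shock protein Hspb6 in the mouse heart, was highest in hypoxic EBs. miR-320-3p read 167 and 185 in hypoxic EBs, 159 and 156 in normoxic EBs, and 139 and 146 in mESCs. No 2 groups overlapped. It averaged 176 ± 12.7 in hypoxic EBs and 142 ± 4.83 in mESCs (SD, n = 2 each), a log2 change of 0.31 that passed the limma test (adjusted p = 0.01423, 1.24-fold, interval 1.09 to 1.41). Normoxic EBs, at 158 ± 2.20 (SD, n = 2), lay between, and neither step passed. The log2 change was 0.15 for normoxic EBs over mESCs (limma adjusted p = 0.1307, interval 0.979 to 1.26-fold) and 0.16 for hypoxic over normoxic EBs (limma adjusted p = 0.1086, interval 0.982 to 1.27-fold). The first of these passed with no scaling (0.88, limma adjusted p = 0.001381), median scaling (0.01352), cyclic loess normalization (0.03278) and scaling to the hur control features (0.01124). The second turned to -0.07 without scaling and passed with median scaling (limma adjusted p = 0.0403) and the hur features (0.003034). It was 0.23 without the first hypoxic EB array and 0.08 without the second. Without the first mESC array the change between hypoxic EBs and mESCs no longer passed (limma adjusted p = 0.07628).

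miR-484, reported to act on the mitochondrial fission gene Fis1 in mouse heart muscle cells, was lowest in hypoxic EBs. It read 20.3 and 22.4 in hypoxic EBs, 24.3 and 22.8 in normoxic EBs, and 31.5 and 30.0 in mESCs. It was highest on both mESC arrays, and no 2 groups overlapped. Against mESCs it was lower by a log2 change of -0.53 in hypoxic EBs (limma adjusted p = 0.003485, 1.44-fold lower, interval 1.26 to 1.66) and of -0.38 in normoxic EBs (limma adjusted p = 0.01511, 1.31-fold lower, interval 1.14 to 1.50). The change in normoxic EBs turned to 0.34 without scaling, and that in hypoxic EBs shrank to -0.0338 and did not pass (limma adjusted p = 0.8121). The -0.15 between hypoxic and normoxic EBs did not pass (limma adjusted p = 0.1512, fold 0.904, interval 0.787 to 1.04), and turned to 0.09 when arrays were scaled to the hur control features. It was larger and passed with no scaling (-0.38, limma adjusted p = 0.04439), quantile normalization (-0.27, 0.0244) and the 75th percentile of all mouse miRNAs (-0.23, 0.03543). The call for normoxic EBs against mESCs was lost without the first mESC array (limma adjusted p = 0.09074), the second mESC array (0.05211) or the second normoxic EB array (0.07155).

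Among the mirtrons, miR-1224-5p was higher in hypoxic EBs than in either other group. It read 5815 and 6757 in hypoxic EBs, 4761 and 4593 in normoxic EBs, and 4239 and 4322 in mESCs. Both hypoxic EB arrays stood above all others. The means were 6286 ± 666 in hypoxic EBs, 4677 ± 119 in normoxic EBs and 4281 ± 58.4 in mESCs (SD, n = 2 each). Hypoxic EBs were higher than normoxic EBs by a log2 change of 0.42 (limma adjusted p = 0.01812, 1.34-fold, interval 1.14 to 1.57) and higher than mESCs by 0.55 (limma adjusted p = 0.004714, 1.46-fold, interval 1.25 to 1.72). The 0.13 between normoxic EBs and mESCs did not pass (limma adjusted p = 0.2728, interval 0.932 to 1.28-fold). It was larger and passed with no scaling (0.86, limma adjusted p = 0.001131), median scaling (0.21, 0.03352) and the hur control features (0.23, 0.01639). Scaling also set the size of the change between hypoxic and normoxic EBs. Before scaling, miR-1224-5p read 6757 and 6264 in hypoxic EBs and 5622 and 5779 in normoxic EBs, a log2 change of 0.19 that did not pass (limma adjusted p = 0.146). The call was also lost with quantile normalization (limma adjusted p = 0.05342) and without the first normoxic EB array (0.0671) or the second (0.06694).

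The 2 arms of miR-877 differed in their pattern. miR-877-5p read 244 and 293 in hypoxic EBs, 222 and 210.1 in normoxic EBs, and 166 and 170.0 in mESCs. It was ordered hypoxic EBs, normoxic EBs, mESCs from high to low, and no 2 groups overlapped. Hypoxic EBs exceeded mESCs by a log2 change of 0.67 (limma adjusted p = 0.004421, 1.59-fold, interval 1.32 to 1.92), and normoxic EBs exceeded mESCs by 0.36 (limma adjusted p = 0.04391, 1.28-fold, interval 1.06 to 1.55). The 0.31 between hypoxic and normoxic EBs did not pass (limma adjusted p = 0.05579, 1.24-fold, interval 1.03 to 1.50). Without any 1 of the 4 arrays compared, the change for normoxic EBs over mESCs stayed between 0.32 and 0.40, while the call did not hold. The difference between hypoxic and normoxic EBs was 0.44 without the first hypoxic EB array and 0.18 without the second. It passed in 7 of 20 other settings of the processing. Among these were median scaling (limma adjusted p = 0.02415), quantile normalization (0.04405), cyclic loess normalization (0.04388) and scaling to the hur control features (0.002581). Without scaling it was 0.08 and did not pass (limma adjusted p = 0.4727).

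miR-877-3p was lowest in normoxic EBs. It read 61.2 and 65.0 in hypoxic EBs, 48.6 and 50.3 in normoxic EBs, and 73.9 and 64.4 in mESCs. The hypoxic EB and mESC arrays overlapped, and both normoxic EB arrays lay below them. Normoxic EBs were lower than mESCs by a log2 change of -0.48 (limma adjusted p = 0.0115, 1.40-fold lower, interval 1.19 to 1.63), which turned to 0.25 without scaling. Hypoxic EBs were higher than normoxic EBs by 0.35 (limma adjusted p = 0.02659, 1.28-fold, interval 1.09 to 1.50), which was 0.12 without scaling and did not pass (limma adjusted p = 0.475). Both calls rest on the same 2 normoxic EB arrays. The first call was lost without either of these (limma adjusted p 0.05962 and 0.05591) and the second without any 1 of its 4 arrays (limma adjusted p 0.06706 to 0.1146). Hypoxic EBs and mESCs differed by -0.13, which did not pass (limma adjusted p = 0.2277) and turned to 0.37 without scaling.

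The ratio of the 5p to the 3p arm of miR-877 does not depend on a single factor per array. Relative to the mESC mean it was 1.64 and 1.85 in hypoxic EBs, 1.87 and 1.72 in normoxic EBs, and 0.922 and 1.08 in mESCs. All 4 EB arrays were above both mESC arrays, and the EB groups overlapped. The ratio was 1.74-fold higher in hypoxic EBs than in mESCs and 1.79-fold higher in normoxic EBs than in mESCs, each with an exact two-sided permutation p of 0.333, the smallest that 2 arrays against 2 can give. Between hypoxic and normoxic EBs it differed 0.971-fold (exact two-sided permutation p = 0.667). The arms are probed by different sequences, 65% G + C for the 5p arm and 59.1% for the 3p arm, so the ratio is read only between arrays. G alone makes up 55% of the 5p arm and 4.5% of the 3p arm. A shift between arrays that goes with base composition would also move this ratio, and its part was not tested.

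**Figure D2:**
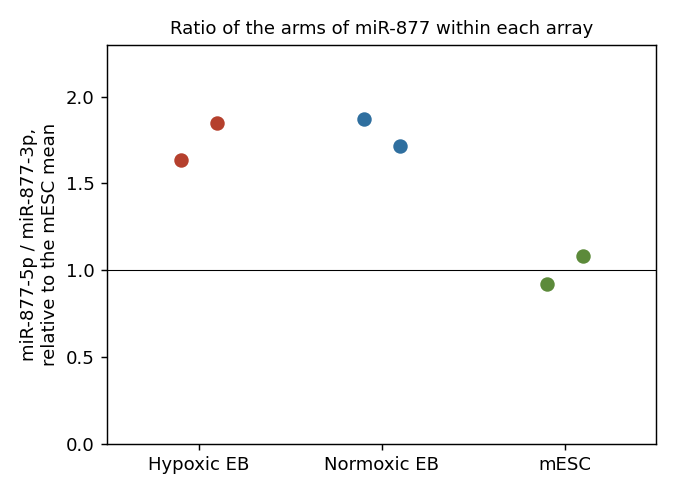
Ratio of miR-877-5p to miR-877-3p signal on each array, relative to the mean of the mESC arrays (linear axis from 0), with hypoxic EBs, normoxic EBs and mESCs from left to right. The EB arrays lie between 1.64 and 1.87, above the mESC arrays at 0.922 and 1.08.

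miR-702-3p was higher in EBs of both kinds than in mESCs. It read 117 and 141 in hypoxic EBs, 112 and 122 in normoxic EBs, and 89.1 and 91.0 in mESCs. The EB groups overlapped, and both stood above the mESC arrays. Hypoxic EBs exceeded mESCs by a log2 change of 0.51 (limma adjusted p = 0.01225, 1.42-fold, interval 1.16 to 1.74) and normoxic EBs exceeded mESCs by 0.37 (limma adjusted p = 0.04573, 1.30-fold, interval 1.06 to 1.58). The 0.13 between hypoxic and normoxic EBs did not pass (limma adjusted p = 0.3222, interval 0.898 to 1.34-fold), and its sign changed without scaling, at -0.10, with quantile normalization, at -0.03, and without the second hypoxic EB array, at -0.0027. The call for hypoxic EBs over mESCs was lost without either mESC array (limma adjusted p 0.0617 and 0.05268) and that for normoxic EBs over mESCs without any 1 of its 4 arrays (limma adjusted p 0.09936 to 0.1825).

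**Figure D3:**
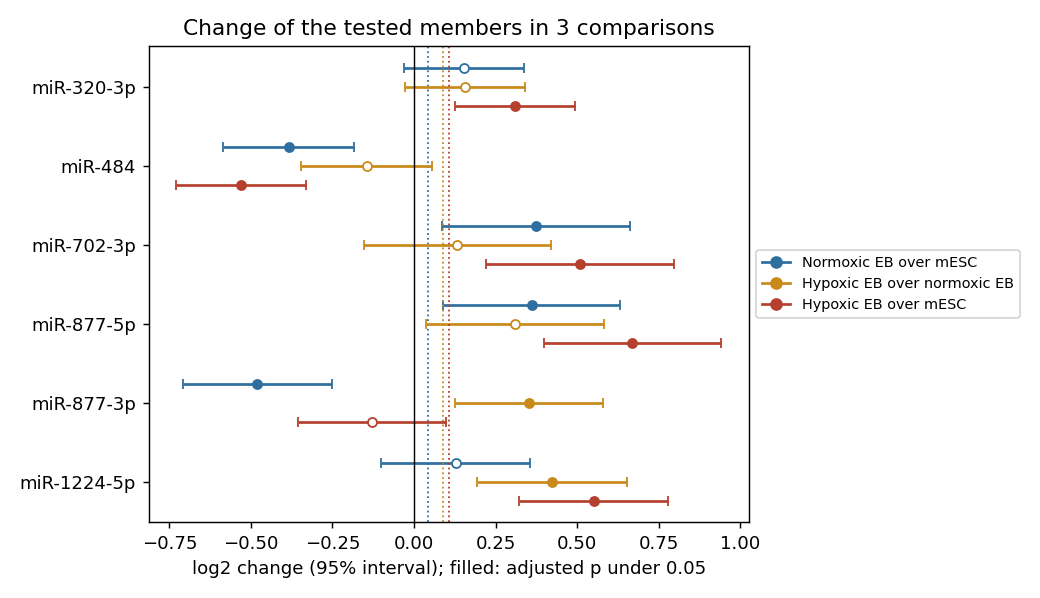
Log2 changes of the 6 tested members with their 95% intervals (limma) in the 3 comparisons; filled points passed an adjusted p of 0.05, and vertical lines mark the median of the 478 other tested miRNAs in each comparison. Changes run from -0.53 for miR-484 to 0.67 for miR-877-5p, both in hypoxic EBs over mESCs; miR-484 and miR-877-3p turn positive in normoxic EBs over mESCs without scaling.

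The counts of members that passed are set beside the share of all tested miRNAs that did. For hypoxic EBs over mESCs, 4 of the 6 tested members were higher, 1 was lower and 1 did not pass, where 75% of all tested miRNAs passed (41.3% higher, 33.7% lower). For normoxic EBs over mESCs 2 were higher, 2 were lower and 2 did not pass, where 51.2% passed (26% higher, 25.2% lower). Between hypoxic and normoxic EBs 2 members were higher by limma, none was lower and 4 did not pass, where 58.1% passed (32.9% higher, 25.2% lower). At an unadjusted p under 0.05 that last comparison had 3 members higher and 0 lower. Leaving out single arrays moved these limma counts, in fits that also had fewer arrays to measure the spread. For normoxic EBs over mESCs, 1 member passed without the first mESC array, the second mESC array or the first normoxic EB array, and 0 without the second normoxic EB array (2 at an unadjusted p under 0.05). For hypoxic over normoxic EBs, 1 passed without the second hypoxic EB array, and 0 without the first (1 at an unadjusted p under 0.05) or the second normoxic EB array (2 at that limit). For hypoxic EBs over mESCs, 3 passed without the first mESC array. Arrays of 2 groups did not overlap for 88%, 79.3% and 84.7% of all tested miRNAs in these 3 comparisons, so separation of 2 arrays from 2 was usual.

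The median log2 change of the 6 members was 0.41 for hypoxic EBs over mESCs, 0.14 for normoxic EBs over mESCs and 0.23 for hypoxic over normoxic EBs. Over the 478 other tested miRNAs it was 0.11, 0.04 and 0.09. The 4 mirtron arms alone had medians of 0.53, 0.24 and 0.33. The median for hypoxic over normoxic EBs was 0.00 without scaling and 0.13 without the second hypoxic EB array.

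The members were also set against the median of the 385 other miRNAs detected on all arrays, taken array by array. This is another single factor per array, so the order of the members' changes within a comparison could not differ from that above. miR-1224-5p lay 6.69 and 6.86 log2 units above that median in hypoxic EBs, 6.36 and 6.36 in normoxic EBs, and 6.11 and 6.16 in mESCs. Its percentile by signal among those miRNAs ran from 96.9 to 98.2. miR-877-5p lay 2.12 and 2.33 above it in hypoxic EBs, 1.93 and 1.91 in normoxic EBs, and 1.43 and 1.49 in mESCs. miR-320-3p lay 1.57 and 1.67 above in hypoxic EBs, 1.46 and 1.48 in normoxic EBs, and 1.17 and 1.27 in mESCs. For these 3 every hypoxic EB array was above every normoxic EB array, and every normoxic EB array above every mESC array. miR-702-3p lay 1.05 and 1.27 above in hypoxic EBs, 0.95 and 1.12 in normoxic EBs, and 0.53 and 0.59 in mESCs. miR-877-3p was close to the median, at 0.12 and 0.16 in hypoxic EBs, -0.26 and -0.16 in normoxic EBs, and 0.26 and 0.09 in mESCs. miR-484 was the only tested member below the median on every array, at -1.47 and -1.38 in hypoxic EBs, -1.25 and -1.30 in normoxic EBs, and -0.97 and -1.01 in mESCs. Against the median of all miRNAs detected on each array, a set that differs between arrays, the change of miR-484 turned to 0.13 for hypoxic EBs over mESCs, 0.09 for normoxic EBs over mESCs and 0.04 for hypoxic over normoxic EBs. That of miR-877-3p was 0.53 for hypoxic EBs over mESCs and -0.008 for normoxic EBs over mESCs by this measure, against -0.04 and -0.38 by the other.

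**Figure D4:**
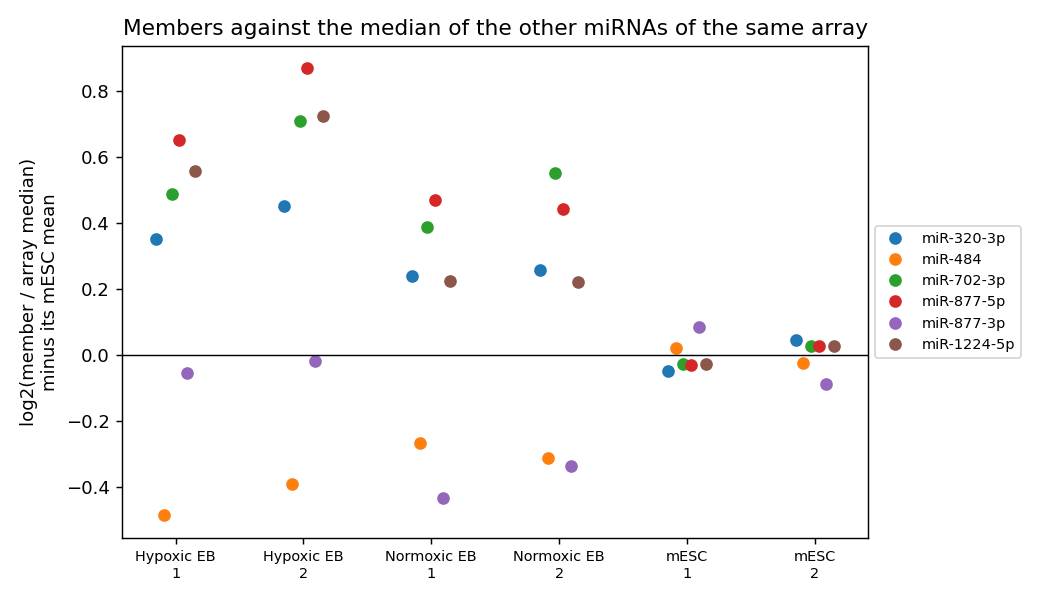
Log2 signal of each tested member minus the median log2 signal of the 385 other miRNAs detected on all arrays, per array, drawn as the difference from that member's mESC mean (the line at 0), with hypoxic EBs, normoxic EBs and mESCs from left to right. Against the line, miR-320-3p, miR-702-3p, miR-877-5p and miR-1224-5p are higher on all 4 EB arrays, and miR-484 is lower on all 4.

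The 5 tested members with a RefSeq sequence are rich in G + C, from 59.1% to 68.2%, against a median of 54.5% over the 357 tested miRNAs with a sequence. Composition went with the changes beyond the members as well. Of the 391 miRNAs detected on all arrays, 286 had a sequence, and miR-320-3p was not among these. Across the 286, Spearman's rho between G + C content and log2 change was 0.617 for hypoxic EBs over mESCs. It was 0.368 for normoxic EBs over mESCs and 0.561 for hypoxic over normoxic EBs. These miRNAs share the 6 arrays and are not independent. The same miRNAs gave rho of -0.092, -0.056 and -0.095 between mean level and change. The 95 miRNAs outside the members with at least 60% G + C, a limit chosen after the values were seen, had median log2 changes of 0.57, 0.21 and 0.38 in the same order of comparisons. The 186 below it had -0.29, -0.06 and -0.19. The mirtron medians of 0.53, 0.24 and 0.33 were close to those of the miRNAs with at least 60% G + C. The part of base composition in the members' changes was not tested. miR-484 departed from that relation, since at 63.6% G + C it was lower in hypoxic EBs than in mESCs by -0.53. miR-877-3p, a mirtron arm at 59.1% G + C, lies just under the chosen limit. Its change was -0.13 for hypoxic EBs over mESCs, -0.48 for normoxic EBs over mESCs and 0.35 for hypoxic over normoxic EBs.

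**Figure D5:**
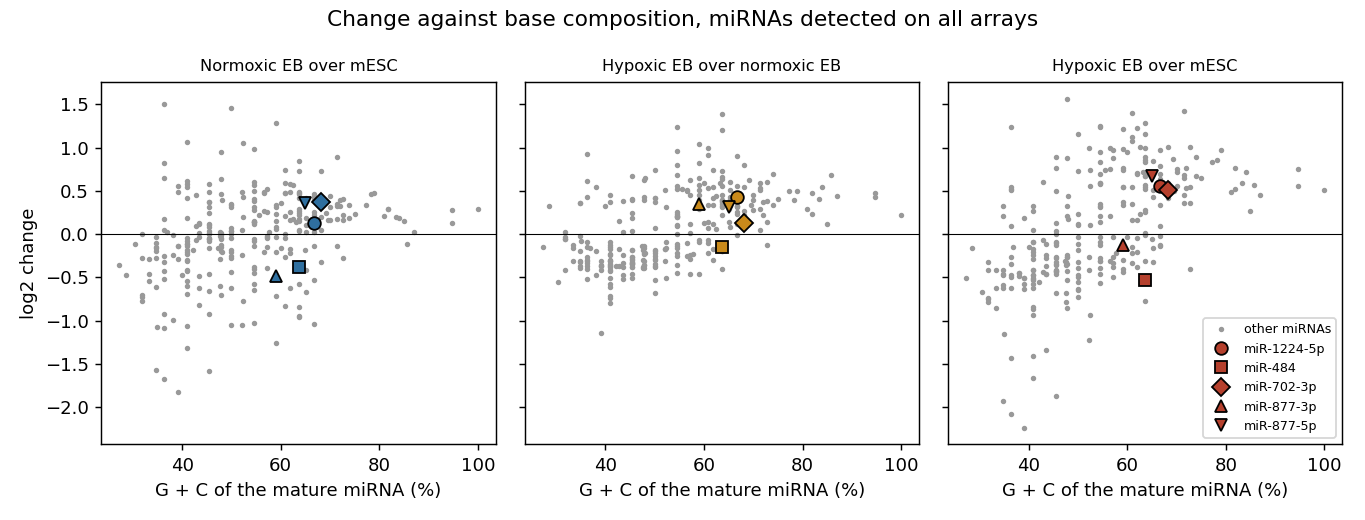
Log2 change against G + C content of the mature miRNA for 286 miRNAs that have a sequence and were detected on all arrays. The 5 members among them are coloured and the others grey. Panels show normoxic EBs over mESCs, hypoxic over normoxic EBs and hypoxic EBs over mESCs. Changes are higher at higher G + C content in each panel (Spearman's rho 0.368, 0.561 and 0.617).

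For each tested member, the other miRNA with the most similar pattern was found by the root mean square difference of log2 signals over the 6 arrays, each centred on its own mean, among 385 miRNAs. miR-1224-5p was nearest to miR-2861 at 0.0057, where the median of the 385 was 0.353. miR-320-3p was nearest to miR-5122 (0.0221), miR-877-5p to miR-3067-3p (0.0244) and miR-702-3p to miR-1901 (0.0467). The nearest to miR-877-3p was miR-32-3p (0.0513) and to miR-484 miR-466c-5p (0.0578). The G + C content of miR-2861 is 94.7%, of miR-5122 85% and of miR-3067-3p 73.9%, while that of miR-32-3p is 28.6%.

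Other miRNAs of unusual origin also went in both directions, as the tested miRNAs in general did. A list of 7 names had 8 entries on the array, with 5 tested and 3 (miR-1839-5p, miR-451a and miR-1982.2-3p) detected on no array. The other 2 names, miR-720 and miR-1225, had no entry among the mouse miRNAs of the array. For hypoxic EBs over mESCs 2 entries were higher, 2 were lower and 1 did not pass, where 75% of all tested miRNAs passed. For normoxic EBs over mESCs, and again for hypoxic over normoxic EBs, 1 was higher, 2 were lower and 2 did not pass. In these comparisons 51.2% and 58.1% of all tested miRNAs passed. The reported mirtron miR-1982-5p was the entry that was higher in all 3 comparisons. It read 296 and 335 in hypoxic EBs, 237 and 226 in normoxic EBs, and 185 and 188 in mESCs, with no overlap between groups. Its log2 change was 0.75 for hypoxic EBs over mESCs (limma adjusted p = 0.001611), 0.31 for normoxic EBs over mESCs (limma adjusted p = 0.03042) and 0.45 for hypoxic over normoxic EBs (limma adjusted p = 0.01331). Without scaling the last of these was 0.21 and did not pass (limma adjusted p = 0.1308). The G + C content of miR-1982-5p is 70%. The call for normoxic EBs over mESCs was lost without any 1 of its 4 arrays (limma adjusted p 0.08328 to 0.1354), and miR-1983 and miR-1839-3p, the 2 entries that were lower there, lost theirs without the first mESC array (limma adjusted p 0.06056 and 0.1169). The entries that were lower are miR-1839-3p, from a small nucleolar RNA, at -0.73 (limma adjusted p = 0.001588), and the transfer RNA-derived miR-1983, at -0.68 (limma adjusted p = 0.0005808), both for hypoxic EBs over mESCs. Without scaling these 2 stood at -0.24 and -0.18 and did not pass (limma adjusted p 0.1225 and 0.3034). Without scaling they turned to 0.41 and 0.44 for normoxic EBs over mESCs and passed as higher (limma adjusted p 0.02109 and 0.03319). The remaining 2 tested entries are the arms of miR-712, and 1 of them was the second that was higher in hypoxic EBs over mESCs. Before scaling, miR-712-3p read 98.9 and 83.3 in hypoxic EBs, 94.9 and 100.2 in normoxic EBs, and 52.6 and 56.8 in mESCs. The values of miR-712-5p were 108.0 and 103.7, 108.2 and 114.8, and 58.8 and 64.0 in the same order.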

How the data were processed

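Total RNA was hybridised to single-colour Cy3 Agilent miRNA arrays. The labels describe Trizol extraction and a labelling kit for amplified cRNA, a protocol usual for messenger RNA, so the labelling used for miRNAs is not settled. Per the file headers, the deposited scanner files give 1268 features (21 of them controls), each with a summed intensity, the scanner's error and a flag for detection, and an undetected miRNA carries an intensity of 0.1. The authors also deposited a normalized ratio without scaling between arrays, used as an alternative. Its raw intensity equals the scanner value in 1253 of 1253 shared rows (relative tolerance 1e-06). A further 6 value columns there belong to arrays outside the sample list and were not used. Array number limits the precision; scanner error of the detected members was 5.04% to 28.4%.

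From the intensities, array scale was set by the 75th percentile over the 391 miRNAs that every array detected, times the arrays' mean percentile. Values below 2.91 were raised to it before log2 was taken. A miRNA was tested if some group detected it on both arrays (484 passed), with a fit of 3 group means with limma 3.58.1 in R 4.3.3 (residual df 3, prior df 1.43), adjusted by Benjamini-Hochberg within each comparison. Figures used Python 3.11.15. The fit was tested on simulated data with independent noise, for normoxic EBs over mESCs. It recovered 50.4% of changes of 1.2-fold and 86.7% of those of 1.5-fold, and 3.41% of its calls were false. A change near 1.2-fold that did not pass may thus have been missed. Members and lists were chosen by name with earlier results of these data known: all entries of the 6 hairpins, other miRNAs of unusual origin and cell type markers. The nearest pattern for each member was found from the signals. Sequences, coordinates and gene neighbours are from RefSeq tables of GRCm38.p6, since the authors' positions name no build. Alternatives covered scaling, floor, filter, prior variance, the groups fitted, replicate block and each array left out. Scanner software is not given in the sources used here.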

Additional observations from a re-analysis of the deposited data

How the results depend on the processing

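The 20 other settings are not separate checks. The authors' ratio gave the members the same log2 changes as no scaling. Leaving out an array outside a comparison gave the same values as fitting the compared groups alone. Floor, filter, intensity trend and replicate block left every member's log2 change as it was. The 6 tested members were followed through these 20 settings in 3 comparisons. Of these single-member values, 281 kept their direction and side of the threshold, 41 no longer passed, 24 newly passed and 14 changed sign. In hypoxic EBs over mESCs, miR-877-5p and miR-1224-5p passed under all 20.

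Members called for normoxic EBs over mESCs were 4, against 2 with a floor 4 times as high, 0 with no filter (limma; 3 at an unadjusted p under 0.05) and 0 to 4 without 1 array. For hypoxic over normoxic EBs they were 2, against 4 with median scaling, 1 with no scaling, 1 with the authors' ratio, 5 with the hur control features, 0 with no filter (limma; 2 at an unadjusted p under 0.05), 1 with the replicate block and 0 to 3 without 1 array. For hypoxic EBs over mESCs they were 5, against 3 with no filter and 3 to 5 without 1 array. Other settings raised the count for normoxic EBs over mESCs. It was 6 with median scaling and with the hur features, and 5 with cyclic loess, no scaling or the authors' ratio. With no scaling 5 members were higher and 0 lower there, against 2 and 2 in the main fit. With no filter many undetected miRNAs sit at the floor, share a single value and enter the variance estimate. The ranges without 1 array, here and below, include arrays outside the comparison. For normoxic EBs over mESCs the upper ends of these ranges came from leaving out a hypoxic EB array, which that comparison does not use.

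All tested miRNAs called for normoxic EBs over mESCs were 248, against 154 with the higher floor, 94 with no filter and 142 to 258 without 1 array. For hypoxic over normoxic EBs they were 281, against 139 with no scaling, 139 with the ratio, 20 with no filter and 160 to 264 without 1 array. For hypoxic EBs over mESCs they were 363, against 231 with no filter. Higher and lower calls were 200 and 163 for hypoxic EBs over mESCs (251 and 19 with no scaling, 251 and 60 with the hur features). They were 126 and 122 for normoxic EBs over mESCs (326 and 11 with no scaling, 184 and 100 with the hur features, 178 and 107 with median scaling). They were 159 and 122 for hypoxic over normoxic EBs (24 and 115 with no scaling, 231 and 15 with the hur features).

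The members' median log2 change for normoxic EBs over mESCs was 0.14, against 0.87 with no scaling, 0.87 with the ratio and 0.24 with the hur features. For hypoxic over normoxic EBs it was 0.23, against 0.0012 with no scaling, 0.0012 with the ratio, 0.47 with the hur features and 0.13 to 0.33 without 1 array. For hypoxic EBs over mESCs it was 0.41, against 0.31 with the 75th percentile of all mouse miRNAs, 0.90 with no scaling, 0.90 with the ratio, 0.75 with the hur features and 0.30 to 0.51 without 1 array. Against the array median, the members' median was 0.50, 0.24 and 0.23 for hypoxic EBs over mESCs, normoxic EBs over mESCs and hypoxic over normoxic EBs, and 1.07, 0.61 and 0.42 against all miRNAs detected on that array.

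Sign changes with no scaling and with the ratio alike were 0.34 for miR-484 and 0.25 for miR-877-3p in normoxic EBs over mESCs, 0.37 for miR-877-3p in hypoxic EBs over mESCs, and -0.0748 for miR-320-3p and -0.10 for miR-702-3p in hypoxic over normoxic EBs. With the hur features miR-877-3p was 0.21 in hypoxic EBs over mESCs and miR-484 0.0901 in hypoxic over normoxic EBs. miR-702-3p in hypoxic over normoxic EBs was -0.026 with quantile normalization and -0.0027 to 0.2687 without 1 array, negative without the second hypoxic EB array. The cause of these changes was not tested.

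Replicate numbers are not said to mark a shared source, and same-numbered arrays deviated with r of 0.109 between hypoxic and normoxic EBs, 0.152 between hypoxic EBs and mESCs, and -0.0257 between normoxic EBs and mESCs. With the replicate block, miR-877-5p in normoxic EBs over mESCs (limma adjusted p = 0.06071) and miR-877-3p in hypoxic over normoxic EBs (limma adjusted p = 0.0504) no longer passed. All 6 tested members lay above the higher floor, so their changes do not depend on it, while their adjusted p-values do.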
